A study of Homo sapiens with 10 samples.

Results

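The genes described here are 9 receptor tyrosine kinases and CBL, a ubiquitin ligase that acts on such receptors. The receptors are EGFR, ERBB2, ERBB3, MET, AXL, FGFR1, FGFR3, PDGFRB and EPHA2. All 10 genes were listed by symbol and found through their Ensembl identifiers among the 61533 genes of the tables. These genes and all other gene lists were chosen with earlier results of these data known. The percentages of all tested genes given beside a list are therefore a background and not a test of that list. Of the 10, 9 had enough counts to be tested together with 16181 genes in all, and FGFR3 did not.

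RNA-seq libraries were made from the human bladder cancer line T24 and from T24R2, a cisplatin-resistant line that was derived from T24 by stepwise exposure to cisplatin. There were 5 libraries of each line, all from day 3 of culture. Both lines grew in RPMI with fetal bovine serum, and the study's methods add cisplatin to the T24R2 medium while the labels name no drug for either line. Line and drug exposure cannot be told apart here. T24R2 is 1 derived line, so the values compare this pair of lines and not resistant with sensitive bladder cancer in general. Nothing in the labels says that the 5 libraries of a line came from separate cultures, so p-values measure only the spread between these libraries, which may be technical.

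Receptor tyrosine kinases are membrane proteins that bind a growth factor outside the cell, pair up, and phosphorylate tyrosines on their own tails and on adaptor proteins inside the cell. CBL binds the phosphorylated tails and attaches ubiquitin, which sends the receptor into endosomes and on to lysosomes. In the urothelium, the epithelium of the bladder, the EGFR family is expressed in the normal tissue, and FGFR3 and members of the EGFR family are known for mutation or amplification in bladder tumors.

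Library totals lay between 9257843 and 10840954 counts, and the 20 pairs of libraries within a line differed by more than sampling noise, with a chi-square of 2.01 to 7.04 per degree of freedom, so all were treated as separate libraries. Levels are given as CPM, the counts divided by the library size after TMM scaling. Changes are log2 fold changes of T24R2 over T24 with their standard error (SE), and a gene was called at an adjusted p under 0.05 if its log2 fold change was also beyond 0.5 in either direction. The median log2 fold change of all tested genes was 0.01. Without scaling beyond library size it was 0.18, and the log2 fold change of each gene moves up with it on the unscaled counts.

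Most of these genes were lower in the resistant line. ERBB3, MET, AXL, FGFR1, PDGFRB, EPHA2 and CBL were called lower in T24R2, which is 7 of the 9 tested genes, beside 26.5% of all tested genes called lower and 51.4% called in either direction. EGFR and ERBB2 had positive log2 fold changes under the fold minimum, so edgeR's quasi-likelihood test called 0 of the 9 higher, beside 24.9% of all tested genes. DESeq2 and limma-voom also called 0 higher, and 2 were higher at an unadjusted p under 0.05. The adjusted p was under 0.05 for 9 of 9 tested genes, beside 75.5% of all tested genes. The CPM ranges of the lines did not overlap for 8 of the 10 genes, 1 higher and 7 lower, beside 61.2% of all tested genes. In bulk RNA, fewer cells that express a gene and less RNA per cell cannot be told apart.

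**Figure D1:**
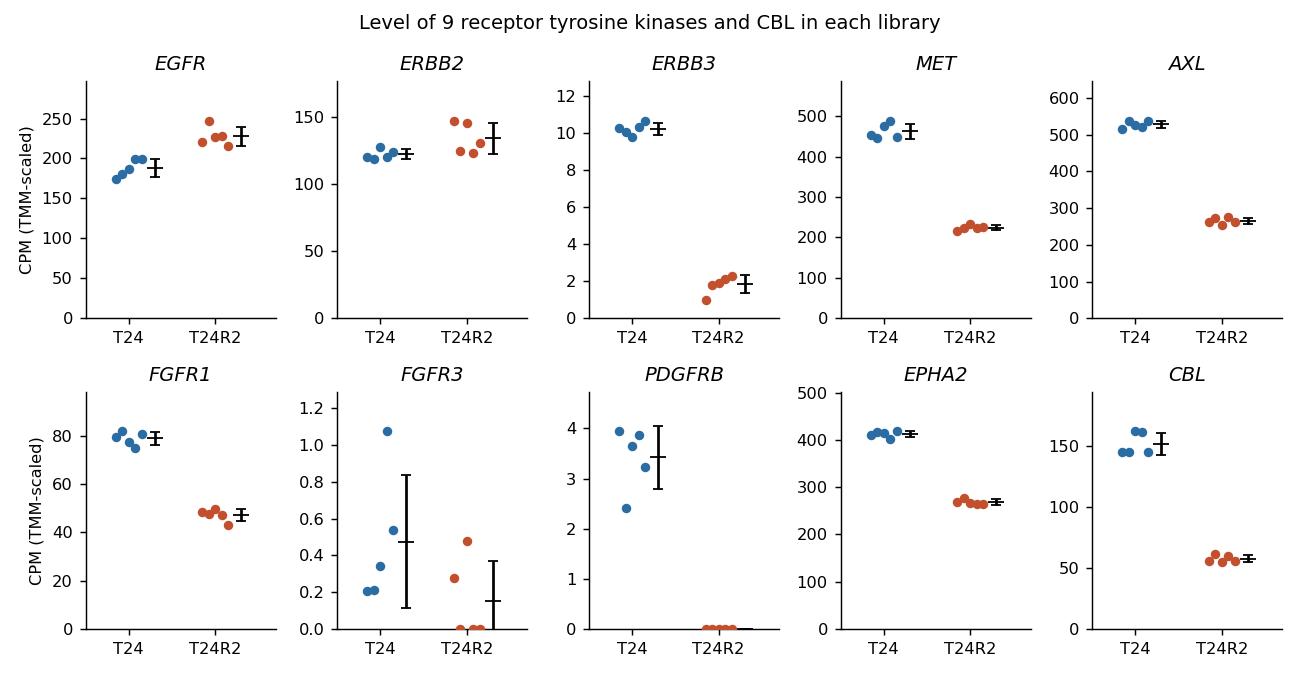
Level of each gene in each library (CPM, linear axes from 0, a separate axis per gene) in 5 T24 libraries in blue and 5 T24R2 libraries in red, with the mean and SD beside the points. The red points lie wholly below the blue ones for ERBB3, MET, AXL, FGFR1, PDGFRB, EPHA2 and CBL, wholly above for EGFR, and overlap with them for ERBB2 and FGFR3.

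EGFR, the receptor for EGF and TGF-alpha, was the gene of the set that lay higher in every T24R2 library. EGFR (ENSG00000146648.20, chromosome 7 of hg38, 55019017 to 55211628, plus strand) had 174, 181, 187, 199 and 199 CPM in the T24 libraries. It had 221, 248, 227, 228 and 216 CPM in the T24R2 libraries. The lowest T24R2 library was above the highest T24 library, with a narrow gap between them. The mean went from 188 ± 11.1 to 228 ± 12.1 CPM (SD, n = 5 libraries per line), which is 121% of T24. The log2 fold change was 0.28 (SE 0.05, Benjamini-Hochberg adjusted p = 2.3e-06 by edgeR's quasi-likelihood test), under the minimum of 0.5. The exact two-sided permutation test of CPM gave p = 0.00794, the smallest value that 5 against 5 libraries allow.

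ERBB2 encodes HER2, which has no known ligand of its own and pairs with the other receptors of the family. ERBB2 (ENSG00000141736.14, chromosome 17, 39687914 to 39730426, plus strand) had 120, 118, 128, 120 and 124 CPM in T24. In T24R2 it had 147, 125, 146, 123 and 130.5 CPM. The T24R2 libraries were more spread, with 2 of them clearly above T24 and the others within or close to its range. The mean in T24 was 122 ± 3.78 CPM and that in T24R2 was 134 ± 11.6 CPM (SD, n = 5). The log2 fold change was 0.14 (SE 0.05, adjusted p = 0.0187 by edgeR's quasi-likelihood test), and the exact two-sided permutation test gave p = 0.0556. Without T24R2 replicate 1 the log2 fold change was 0.11 and the edgeR adjusted p was 0.0679.

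ERBB3 encodes HER3, which binds neuregulins and signals through a partner kinase, since its own kinase is weak. ERBB3 (ENSG00000065361.17, chromosome 12, 56076799 to 56103505, plus strand) was low in T24, at 10.3, 10.1, 9.83, 10.3 and 10.7 CPM, and lower still in T24R2, at 1.01, 1.82, 1.92, 2.14 and 2.26 CPM. These levels rest on 86 to 99 counts per T24 library and 11 to 24 counts per T24R2 library. The 5 T24 values lay close together and far above the T24R2 values. The fall was 5.60-fold, a log2 fold change of -2.48 (SE 0.19, adjusted p = 3.4e-15 by edgeR's quasi-likelihood test), and 4.62% of all tested genes had a lower log2 fold change. The ratio of ERBB3 to ERBB2, on the scale of CPM per kb of exon, went from 0.0741 ± 0.00352 in T24 to 0.0122 ± 0.00381 in T24R2 (SD, n = 5).

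MET, the receptor for hepatocyte growth factor, fell to about the same relative level in every T24R2 library. MET (ENSG00000105976.16, chromosome 7, 116672196 to 116798377, plus strand) had 453, 447, 477, 490 and 449 CPM in T24. It had 216, 224, 233, 224 and 225 CPM in T24R2. The lowest T24 library was well above the highest T24R2 library. The mean fell from 463 ± 19.2 to 224 ± 5.81 CPM (SD, n = 5), a 2.06-fold fall and a log2 fold change of -1.05 (SE 0.04, adjusted p = 1.0e-23 by edgeR's quasi-likelihood test). HGF, which encodes its ligand, had 0 counts in all 10 libraries.

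AXL, a receptor of the TAM family that binds GAS6, was the most abundant of the receptors in T24 on the scale of CPM per kb. AXL (ENSG00000167601.12, chromosome 19, 41219223 to 41261766, plus strand) had 514, 538, 528, 521 and 538 CPM in T24 and 263, 272, 255, 275 and 263 CPM in T24R2. The spread within each line was small beside the distance between the lines. The mean fell from 528 ± 10.6 to 266 ± 8.13 CPM (SD, n = 5), a 1.99-fold fall and a log2 fold change of -0.99 (SE 0.04, adjusted p = 1.8e-23 by edgeR's quasi-likelihood test). Its ligand gene GAS6 fell as well, from 164 ± 5.08 to 23.9 ± 1.42 CPM (log2 fold change -2.78). The ratio of MET to AXL per kb was 0.624 ± 0.0333 in T24 and 0.601 ± 0.0292 in T24R2 (SD, n = 5), and its ranges overlapped.

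FGFR1 and FGFR3 are receptors for fibroblast growth factors. FGFR1 (ENSG00000077782.22, chromosome 8, 38400215 to 38468834, minus strand) had 79.7, 82.0, 77.5, 75.1 and 80.9 CPM in T24 and 48.6, 47.5, 49.5, 47.0 and 43.3 CPM in T24R2. No library of one line reached the range of the other. The mean fell from 79.0 ± 2.76 to 47.2 ± 2.40 CPM (SD, n = 5), a 1.67-fold fall and a log2 fold change of -0.74 (SE 0.06, adjusted p = 9.6e-15 by edgeR's quasi-likelihood test). FGFR3 (ENSG00000068078.20, chromosome 4, 1793293 to 1808872, plus strand), the receptor best known from papillary bladder tumors, was close to absent in both lines. Its counts were 2, 2, 3, 10 and 5 in T24 and 3, 0, 5, 0 and 0 in T24R2. The values of the lines overlapped, and a difference between them was not detectable at this depth. The mean difference was -0.32 CPM (exact two-sided permutation test, p = 0.111), and without T24R2 replicate 3 it was -0.41 CPM (exact two-sided permutation test, p = 0.0476).

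PDGFRB encodes the beta receptor for platelet-derived growth factors, which pericytes and fibroblasts use. PDGFRB (ENSG00000113721.14, chromosome 5, 150113839 to 150155872, minus strand) was counted 38, 23, 32, 36 and 30 times in the T24 libraries and 0 times in each T24R2 library. The T24 level was 3.43 ± 0.626 CPM (SD, n = 5). Set against a floor of 3 counts per library, PDGFRB was at least 12.4-fold lower in T24R2 (adjusted p = 1.2e-13 by edgeR's quasi-likelihood test). PDGFRA, the alpha receptor, had 0 counts in every T24 library and 1 to 7 counts in the T24R2 libraries, too few for a test across genes. Floors cover counting error only.

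EPHA2, a receptor for membrane-bound ephrin-A ligands on neighboring cells, was nearly as abundant per kb as AXL in T24. EPHA2 (ENSG00000142627.13, chromosome 1, 16124337 to 16156069, minus strand) had 410, 418, 414, 402 and 418 CPM in T24 and 269, 278, 266, 264 and 264 CPM in T24R2. Both sets of libraries were tight and did not overlap. The mean fell from 412 ± 6.73 to 268 ± 5.81 CPM (SD, n = 5), a 1.54-fold fall and a log2 fold change of -0.62 (SE 0.04, adjusted p = 5.3e-17 by edgeR's quasi-likelihood test). On unscaled counts it was -0.46, short of the fold minimum, with the median of all genes at 0.18.

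CBL (ENSG00000110395.7, chromosome 11, 119206298 to 119313926, plus strand) had 146, 145, 162, 162 and 145 CPM in T24. It had 56.0, 61.3, 55.3, 60.1 and 55.5 CPM in T24R2. Every T24R2 library lay far below every T24 library. The mean fell from 152 ± 9.11 to 57.6 ± 2.84 CPM (SD, n = 5), a 2.64-fold fall and a log2 fold change of -1.40 (SE 0.05, adjusted p = 1.2e-24 by edgeR's quasi-likelihood test). Its paralog CBLB went from 14.3 ± 2.50 to 16.2 ± 1.44 CPM (SD, n = 5, log2 fold change 0.18, edgeR adjusted p = 0.142), and CBLC had 0 counts in all libraries. On the counts as deposited, the ratio of CBL to CBLB per kb went from 11.3 ± 1.23 to 3.76 ± 0.50 (SD, n = 5), and the ratio of CBL to EGFR from 0.863 ± 0.0542 to 0.270 ± 0.00832. CBL shares 6.86% of the exon bases of the gene MCAM, described next. With that share of the MCAM counts taken off, the log2 ratio of CBL, T24R2 over T24, was -1.32. Taking off all MCAM counts is a far larger subtraction, and with it the ratios to CBLB and EGFR went up instead. That of CBL to CBLB went from 1.88 ± 0.854 to 3.74 ± 0.507, and that of CBL to EGFR from 0.150 ± 0.0798 to 0.269 ± 0.00880.

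The CBL counts share bases with another gene that changed far more. The annotated exons of CBL and of MCAM, which encodes a cell adhesion molecule and lies on the minus strand, share 509 bases at the 3′ end of CBL (chromosome 11, 119313418 to 119313926), which is 4.34% of the CBL exon bases and 6.86% of the MCAM exon bases. MCAM had 1068 to 1311 counts in the T24 libraries and 1 to 7 in the T24R2 libraries (125 ± 7.52 and 0.283 ± 0.238 CPM, log2 fold change -8.76). With the shared-base share of MCAM taken off, the log2 ratio of CBL was -1.32. With all MCAM counts taken off, it was 1.11, the opposite direction. The fall reached the fold minimum once 56.4% of the MCAM counts were taken off, and the line means were level at 75.5%. In T24R2, even coverage would place 27.2 CBL counts per library in the shared bases, and the mean MCAM count there was 3. How many of the CBL counts in T24 came from MCAM transcripts was not tested, since the tables hold counts per gene.

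**Figure D2:**
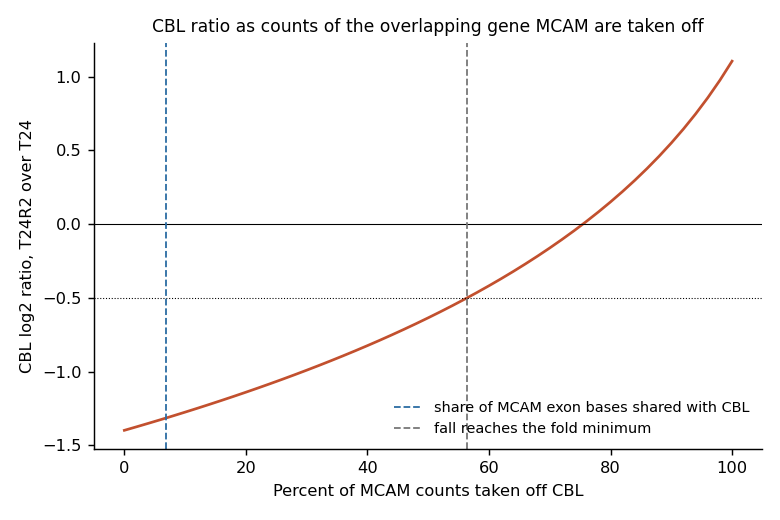
Log2 ratio of CBL, T24R2 over T24 (vertical axis), as a rising percent of the MCAM counts of each library (horizontal axis) is subtracted from its CBL counts. The curve starts at -1.40, is at -1.32 at the blue line, where the percent equals the 6.86% of MCAM exon bases shared with CBL, crosses the minimum of -0.5 at 56.4% (grey line) and ends at 1.11.

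The tables were counted with strand option 1, but whether the reads of both strands were kept apart was not settled. Among 187 genes of at least 300 bases that lie over 90% within the exons of an opposite-strand gene, and for which that gene would give at least 500 counts, the median count was 1.52 times the expected one, and 6.95% had a ratio under 0.05. These counts include the genes' own expression. For MCAM in T24R2, the count was well under the expected one, as given above. For the other genes of the set, opposite-strand partners were EGFR-AS1 on EGFR (1.49% of its exon bases), PGAP3 and MIEN1 on ERBB2 (6.93% together), LETM2 and ENSG00000255201 on FGFR1 (3.05% together) and ENSG00000269652 on AXL (1.31%). Taking off the counts in proportion to the shared bases left EGFR at a log2 ratio of 0.28, AXL at -1.0 and FGFR1 at -0.74, with ERBB2 at 0.19. With all partner counts taken off, ERBB2 was at 0.44 and FGFR1 at -1.14. ERBB3, MET, EPHA2, PDGFRB and FGFR3 share no exon bases with an opposite-strand gene.

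Levels can be compared between genes only per length. The length used is that of all annotated exons of a gene merged, such as 4141 bases for EPHA2 and 17201 for FGFR1. It is not the length of the transcripts expressed, which the counts per gene do not give. A gene whose expressed transcript is much shorter than this is set too low in the order, the shares and the ratios between genes. Per kb of exon, the order in T24 was AXL (103 ± 2.06 CPM per kb), EPHA2 (99.6 ± 1.63), MET (64.1 ± 2.65), EGFR (15 ± 0.890), CBL (13 ± 0.777), ERBB2 (11.8 ± 0.366), FGFR1 (4.59 ± 0.161), ERBB3 (0.875 ± 0.0271), PDGFRB (0.480 ± 0.0877) and FGFR3 (0.0980 ± 0.0747), each the mean and SD of 5 libraries. AXL and EPHA2 overlapped in their ranges, as did CBL and ERBB2, although AXL was above EPHA2, and CBL above ERBB2, within 5 of 5 libraries. In T24R2 the order was EPHA2 (64.8 ± 1.40 CPM per kb), AXL (51.7 ± 1.58), MET (31.1 ± 0.805), EGFR (18.2 ± 0.965), ERBB2 (13 ± 1.12), CBL (4.92 ± 0.242), FGFR1 (2.74 ± 0.140), ERBB3 (0.156 ± 0.0419), FGFR3 (0.0312 ± 0.0452) and PDGFRB at 0. EPHA2 and AXL changed places, with separate ranges in T24R2. CBL stood above ERBB2 in T24 and below it in T24R2 on the counts as deposited. With all MCAM counts taken off, CBL was at 2.27 ± 1.24 CPM per kb in T24 and 4.89 ± 0.253 in T24R2, below ERBB2 in both lines. That subtraction goes far beyond the 6.86% of MCAM exon bases that CBL shares. At the end of the T24R2 order, ERBB3 and FGFR3 overlapped in their ranges, as did FGFR3 and PDGFRB.

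The make-up of the receptor mRNA was compared as shares within each library, where the scaling between libraries plays no part. The levels per kb of 58 receptor tyrosine kinases were summed, and their sum fell from 402 ± 4.86 to 256 ± 2.34 CPM per kb (SD, n = 5), which is 63.7% of T24. Unlike the shares, this sum moves with the scaling, and on unscaled counts it was 71.3% of T24. Together, AXL, EPHA2 and MET made up 66.4% ± 0.250 of the sum in T24 and 57.7% ± 0.794 in T24R2. EGFR had 3.55%, 3.59%, 3.71%, 3.95% and 3.94% of the sum in the T24 libraries and 6.89%, 7.66%, 7.06%, 7.20% and 6.81% in the T24R2 libraries. Its share was thus 1.90 times as large, while its own log2 fold change was under the fold minimum. ERBB2 went from 2.94% ± 0.0854 to 5.08% ± 0.424, AXL from 25.6% ± 0.357 to 20.2% ± 0.682 and MET from 16.0% ± 0.632 to 12.1% ± 0.323 (SD, n = 5). For EGFR, ERBB2, ERBB3, MET, AXL and PDGFRB the lines did not overlap in share (exact two-sided permutation test, p = 0.00794, adjusted p = 0.0119 over 9 receptors). Because the sum fell, a receptor at a steady level gains share. EPHB4 overlapped between the lines in CPM, and its mean share went from 3.24% to 5.07%. The gain was not particular to EGFR and ERBB2, as EPHA1 went from 1.44% to 4.81%, LMTK2 from 0.913% to 2.34% and RYK from 2.57% to 3.52%. Others lost share, such as PTK7, from 4.95% to 4.27%, and TIE1, from 2.86% to 0.0314%.

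**Figure D3:**
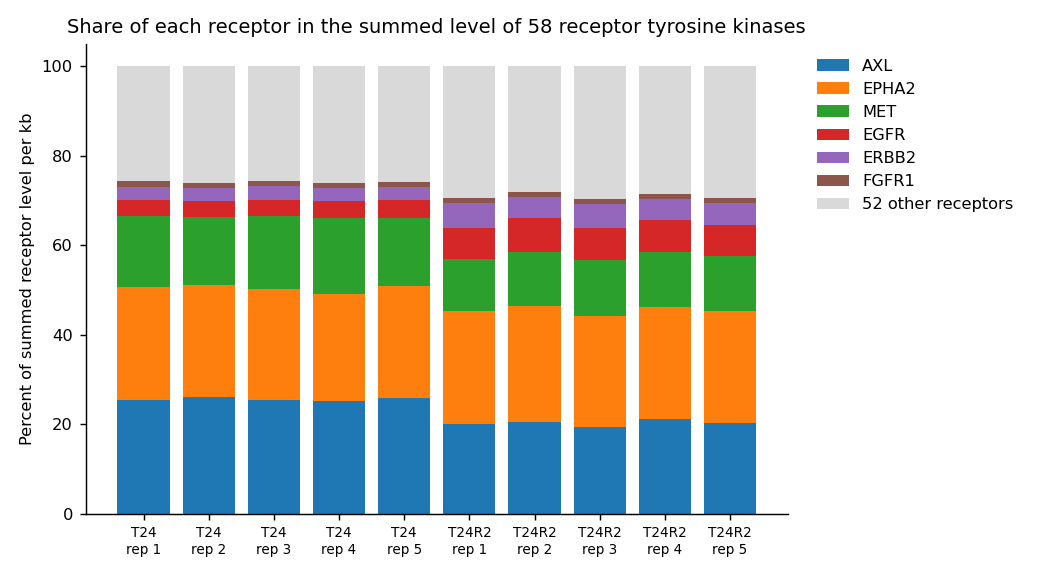
Percent of the summed level per kb of 58 receptor tyrosine kinases (vertical axis) taken by each of 6 receptors and by the 52 other receptors together, in each of the 10 libraries. AXL, EPHA2 and MET fill 66.4% of the bar on average in T24 and 57.7% in T24R2, and the segments of EGFR and ERBB2 are wider in every T24R2 library.

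The share of EPHA2 was 24.8% ± 0.443 in T24 and 25.3% ± 0.377 in T24R2 (exact two-sided permutation test, p = 0.0635, adjusted p = 0.0714), a difference that did not pass the threshold. Its level per kb in T24R2 was 65.1% of that in T24, beside 63.7% for the sum. Its share was lower by 0.209 points in T24R2 when counts were not divided by exon length, and higher by 2.38 points when the sum was taken over the 9 receptors alone, where it passed the threshold (exact two-sided permutation test, adjusted p = 0.0102). FGFR1 went from 1.14% ± 0.0441 to 1.07% ± 0.0485 (exact two-sided permutation test, p = 0.0476, adjusted p = 0.0612). The ratio of EGFR to MET per kb went from 0.235 ± 0.0132 to 0.587 ± 0.0331 and that of EGFR to AXL from 0.146 ± 0.00820 to 0.352 ± 0.0162 (SD, n = 5). The ratio of EGFR to ERBB2 was 1.27 ± 0.0756 in T24 and 1.41 ± 0.169 in T24R2, with overlapping ranges. CBL stood at 3.23% ± 0.182 of the summed receptor level in T24 and at 1.92% ± 0.0929 in T24R2 (exact two-sided permutation test, p = 0.00794). With all MCAM counts taken off, the direction was the opposite, with 0.566% ± 0.306 in T24 and 1.91% ± 0.0972 in T24R2. Only 6.86% of the MCAM exon bases are shared with CBL, and taking off that share left the log2 ratio of CBL at -1.32.

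The other 49 receptor tyrosine kinases held falls and rises. Of these, 24 were tested, and 13 were called lower, 8 higher and 3 not, which is 87.5% called beside 51.4% of all tested genes, with a median log2 fold change of -0.84 beside 0.01 for all tested genes. TIE1, an endothelial receptor, fell from 77.1 ± 2.08 to 0.537 ± 0.252 CPM (log2 fold change -7.14). The closest relatives of the receptors described above went along with them in some cases, with MST1R, the relative of MET, at -2.14, and TYRO3 and MERTK, the relatives of AXL, at -1.60 and -1.71. FGFR4 was higher, at 1.43. IGF1R fell from 81.4 ± 5.30 to 21.1 ± 1.92 CPM (log2 fold change -1.95), whereas the related insulin receptor INSR rose from 2.92 ± 0.633 to 24.2 ± 1.87 CPM (log2 fold change 3.04). EPHB1, an ephrin-B receptor, rose from 0.837 ± 0.425 to 21.7 ± 1.08 CPM (log2 fold change 4.67), and PTK7, the most abundant of the 49 per kb in T24, fell with a log2 fold change of -0.86. ERBB4, the 4th receptor of the EGFR family, had at most 2 counts in a T24 library and 2 to 10 in T24R2.

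**Figure D4:**
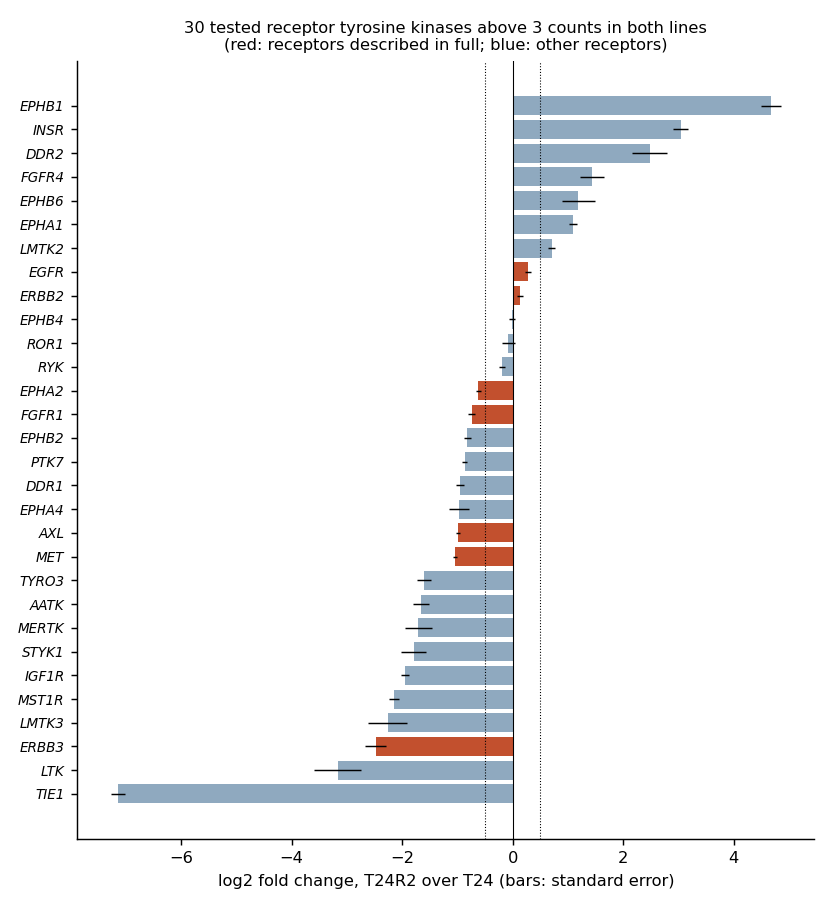
Log2 fold change of T24R2 over T24 with its standard error for the 30 tested receptor tyrosine kinases with over 3 counts in at least 1 library of each line, sorted, with the 7 receptors described in full in red, the others in blue and the fold minimum as dotted lines. EGFR and ERBB2 lie between the lines on the positive side, and the other red bars run from -0.62 for EPHA2 to -2.48 for ERBB3.

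Ligand genes of these receptors were mostly changed. Of 28 listed ligand genes, 22 were tested, and 12 were called lower, 9 higher and 1 not (median log2 fold change -1.36), which is 95.5% called beside 51.4% of all tested genes. Ligands of EGFR were among the falls, with AREG going from 28.7 ± 3.29 to 0.532 ± 0.228 CPM (log2 fold change -5.71) and HBEGF from 67.8 ± 6.24 to 8.66 ± 0.726 CPM (log2 fold change -2.97). Of the ligands of EGFR called higher, BTC went from 0.697 to 2.63 CPM (log2 fold change 1.92), and EGF, at 3 counts or fewer in every T24 library, rose to 2.55 CPM, at least 7.87-fold higher. Ligands of PDGFRB were split, as PDGFB, the most abundant ligand per kb in T24, fell from 247 ± 11.5 to 60.2 ± 4.91 CPM (log2 fold change -2.03), and PDGFD, at 3 counts or fewer in every T24 library, rose to 7.11 ± 0.704 CPM, at least 22-fold higher. Ephrin-A ligands of EPHA2 were split too. EFNA1 fell from 22.1 ± 2.41 to 1.76 ± 0.339 CPM (log2 fold change -3.64). EFNA5 was called higher, from 19.99 to 31.29 CPM (log2 fold change 0.65). EFNA3 was also called higher, from 0.99 to 3.13 CPM (log2 fold change 1.66). EFNA4 was not called (log2 fold change -0.34). The ligands FGF1 and FGF2 of FGFR1 were higher, with log2 fold changes of 1.30 and 1.15, while FGF5 was at -2.44. FGF2 shares 11.9% of its exon bases with NUDT6 on the opposite strand.

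Genes that work with CBL in receptor ubiquitination and sorting were called about as often as genes in general. Of 20 listed, 18 were tested, and 6 were called lower, 4 higher and 8 not, which is 55.6% called beside 51.4% of all tested genes, with a median log2 fold change of -0.10 that was 0.06 on unscaled counts. NEDD4, another ubiquitin ligase, rose from 64.0 ± 4.55 to 212 ± 6.69 CPM (log2 fold change 1.73). UBASH3B, a phosphatase that binds CBL, fell from 117 ± 6.48 to 36.8 ± 2.72 CPM (log2 fold change -1.67), and TSG101, a subunit of the sorting complex that takes receptors into lysosomes, from 79.8 ± 4.15 to 40.7 ± 2.68 CPM (log2 fold change -0.97). GRB2, the adaptor that links receptors to CBL and to RAS activation, fell from 153 ± 5.57 to 89.0 ± 4.03 CPM (log2 fold change -0.78). EPN2 and STUB1 were called lower too, at -0.78 and -0.73, but share 26.5% and 42.5% of their exon bases with an opposite-strand gene.

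Feedback inhibitors and phosphatases that act on the receptors were split. Of 17 listed, 16 were tested, with 6 called higher, 5 lower and 5 not (68.8% called, beside 51.4% of all tested genes), and with 7 higher and 4 lower on unscaled counts. ERRFI1, which binds and inhibits EGFR, was the most abundant of them per kb and fell from 631 ± 24 to 403 ± 6.36 CPM (log2 fold change -0.65). The receptor phosphatase PTPRF fell from 999 ± 28.2 to 314 ± 10.4 CPM (log2 fold change -1.67), and SPRED1, an inhibitor of the RAS pathway, had a log2 fold change of -1.43. PTPRK and SOCS5 rose, with log2 fold changes of 1.09 and 1.32. LRIG1, which promotes EGFR degradation, had a log2 fold change of 1.76, and 37.9% of its exon bases are shared with the opposite-strand gene SLC25A26.

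Of 24 adaptor genes, 22 were tested, with 7 called lower, 5 higher and 10 not, which is 54.5% called and close to the 51.4% of all tested genes, and with 5 lower and 9 higher on unscaled counts. GRB7, an adaptor of ERBB2 whose gene lies close to it on chromosome 17, fell from 13.9 ± 1.6 to 0.327 ± 0.381 CPM (log2 fold change -5.34). GRB10 fell from 103 ± 6.18 to 15 ± 0.358 CPM (log2 fold change -2.78), and IRS2 had a log2 fold change of -1.63. PLCG2 rose from 1.86 ± 0.738 to 15.5 ± 2.13 CPM (log2 fold change 3.04). SHC1, the most abundant adaptor per kb, had 434 ± 15.8 CPM in T24 and 421 ± 20.9 CPM in T24R2 (edgeR adjusted p = 0.341).

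Genes that cleave the receptors or their ligands were listed together with genes that inhibit such cleavage. The list was mostly lower, but it pools genes of opposite effect, and a net effect on cleavage was not tested. Of 13 listed, 10 were tested, with 6 called lower, 1 higher and 3 not (median log2 fold change -1.19), which is 70% called beside 51.4% of all tested genes. On unscaled counts and with upper-quartile scaling 2 were called higher. TIMP3, an inhibitor of ADAM proteases, had 672 ± 70.5 CPM in T24 and 0 counts in every T24R2 library, at least 2426-fold lower. SPINT1, which inhibits the activator of HGF, went from 95.2 ± 1.72 CPM to 0 counts, at least 344-fold lower, and SPINT2 had a log2 fold change of -8.0, with 12.2% of its exon bases shared with an opposite-strand gene. RHBDF2, a partner of ADAM17, was at -2.71, and the protease gene BACE2 was called higher, at 4.09. ADAM17, the main sheddase of EGFR ligands, was at 83.1 ± 2.83 CPM in T24 and 90.04 ± 1.46 CPM in T24R2, under the fold minimum. It shares 14.4% of its exon bases with opposite-strand genes. Of the other proteases, ADAM9 had a log2 fold change of -1.28, while ADAM10 went up, from 178 to 203 CPM in T24 libraries to 263 to 273 CPM in T24R2 libraries.

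The genes lie on 9 chromosomes, and their neighborhoods differed. The counts below stand beside 26.5% of all tested genes called lower and 24.9% called higher. Around CBL, 31 of 35 tested genes within 1 Mb were called lower, with a median log2 fold change of -0.99, and 16 of the 35 had a lower log2 fold change than CBL. Around MET, 3 of 10 neighbors were called lower and 2 higher, with a median of 0.09, and 0 of 10 had a lower log2 fold change than MET. Around PDGFRB, 5 of 26 neighbors were lower and 12 higher (median 0.25), and around ERBB3, 19 of 54 were lower (median -0.31). For both, 0 of the neighbors had a lower log2 fold change. Around AXL the median was 0.16, and 2 of 40 neighbors had a lower log2 fold change than AXL. EPHA2 and FGFR1 were within the range of their surroundings, with 12 of 42 and 7 of 29 neighbors lower than they were. Around EGFR, 8 of 13 neighbors were called lower, with a median of -0.59, and 9 of the 13 had a lower log2 fold change than EGFR. Around ERBB2, 14 of 48 were lower and 4 higher (median -0.16), and around FGFR3, 5 of 26 were lower and 5 higher (median 0.02).

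**Figure D5:**
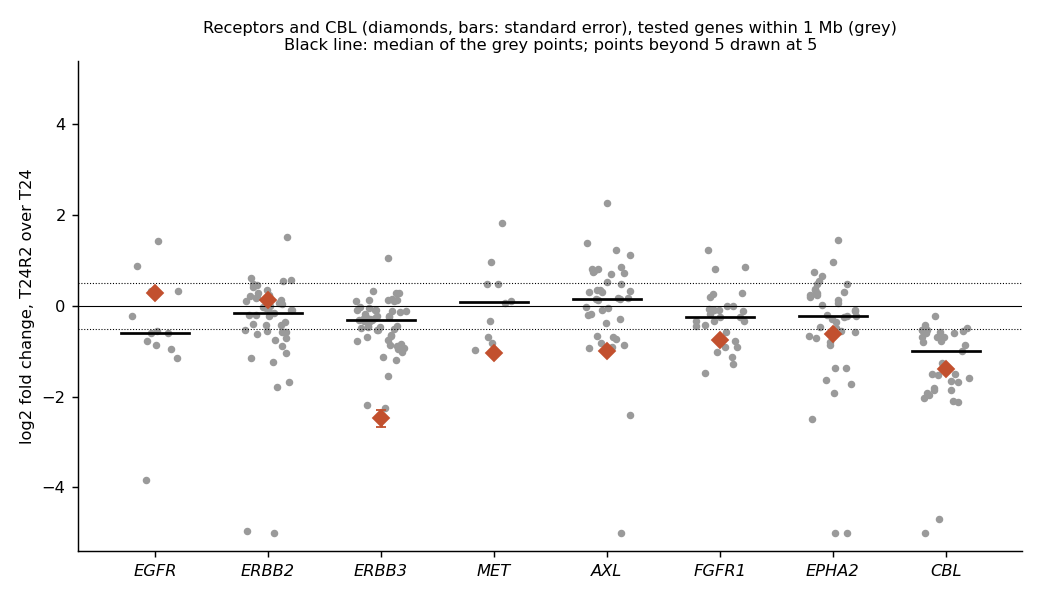
Log2 fold change of T24R2 over T24 for 8 of the tested genes (red diamonds, bars for the standard error) and for the tested genes within 1 Mb of each (grey, spread sideways only to be seen), with the median of the grey points as a black line, the fold minimum dotted and points beyond 5 drawn at 5. MET and ERBB3 lie below all grey points of their column, and the median around CBL is -0.99.

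The nearest tested genes moved in various ways. Next to MET, CAV1 had a log2 fold change of 0.48 and CAPZA2 of 0.11. Next to AXL, HNRNPUL1 was at -0.28. FGFR1 has TACC1 beside it, at -0.91, and FGFR3 has TACC3 on one side, at -1.08, and LETM1 on the other, at 0.46. SEC61G next to EGFR was at -0.87, PGAP3 and MIEN1 beside ERBB2 were at -0.16 and -0.58, and RPS26 and PA2G4 beside ERBB3 were at -0.46 and -0.51. PDGFRB lies between the pseudogene RPL7P1, at -0.58, and TCOF1, at 0.06. EPHA2 has FAM131C on one side, at -2.48, and EPHA2-AS1 on the other, at -0.23 and not called. CBL has CCDC153 on one side, at -2.02, and MCAM on the other, at -8.76.

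For each tested gene, the gene with the most similar profile was found by the root mean square difference of log2 CPM, centered per gene, over the 10 libraries. EPHA2 had the closest partner, GANAB, at a difference of 0.0297, followed by AXL with TRAF4 at 0.0384, MET with COPB2 at 0.0422, FGFR1 with MTCH1 at 0.0425 and EGFR with SCFD1 at 0.0444. ERBB2 was closest to SNU13 (0.0526) and CBL to SUCLG2 (0.0661). Such closeness is common among genes with the same change between the lines, and 487 genes lay within 0.1 of EPHA2, 218 of MET and 41 of CBL. ERBB3 had no gene within 0.1, its closest being NINL at 0.162, and PDGFRB none either, with FER1L4 at 0.103.

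Markers of cell types were checked beside these levels, because several of the receptors are typical of particular lineages. The urothelial keratin gene KRT7 was high in both lines, at 2242 ± 70.2 CPM in T24 and 1370 ± 64.6 CPM in T24R2, whereas KRT5 and KRT20 were at or near 0 in both, and the urothelial factor GATA3 went from 22.1 ± 2.0 to 0.214 ± 0.210 CPM. Of 15 urothelial and epithelial markers, 8 were tested, and 8 were called lower (7 on unscaled counts), beside 26.5% of all tested genes. The summed level of the 15 was 4943 to 5676 CPM in T24 libraries and 3013 to 3217 CPM in T24R2 libraries. The 10 fibroblast and mesenchymal markers summed to 643 to 683 CPM in T24 and 4111 to 4646 CPM in T24R2, almost all of it VIM and CDH2, while COL1A1 fell from 6.45 ± 0.678 to 1.03 ± 0.511 CPM, THY1 had 0.665 ± 0.164 CPM in T24 and 0 counts in T24R2, and COL1A2, COL3A1, DCN, LUM and FAP were at or near 0. VIM shares 24.6% of its exon bases with opposite-strand genes. The 7 pericyte and smooth muscle markers summed to 136 to 154 CPM in T24 and 8.11 to 9.63 CPM in T24R2, most of it MCAM in T24. RGS5 was called higher, from 0.811 to 2.79 CPM, MYH11 was at 4.51 CPM in T24 and 3.33 CPM in T24R2 and was not called, and NOTCH3 and DES were at or near 0. The 6 endothelial markers summed to 301 to 356 CPM in T24 and 2.11 to 3.05 CPM in T24R2, mostly CDH5 and TIE1, while KDR, VWF and ERG had means under 0.5 CPM in both lines. The 6 leukocyte markers summed to at most 2.98 CPM in any library. The part of these marker changes in the levels of PDGFRB, ERBB3 and the other receptors was not tested.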

How the data were processed

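The deposited values are raw counts of fragments per gene. Per the study's methods, the labels and the file headers, the authors used STAR 2.7.0 and hg38 for alignment, SAMtools 1.10 to keep reads that mapped to 1 place and were no duplicates, and for counting GENCODE release 39 with featureCounts 2.0.1 at strand option 1. Removal of duplicates can lower counts of abundant transcripts. Of 61533 genes, 61369 matched a symbol, 33622 had a count and 0 rows lacked an identifier.

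Samples were grouped by the cell line in their labels. Counts were fitted in R 4.3.3 with edgeR 4.0.16 (default filterByExpr, TMM, glmQLFit, glmQLFTest, Benjamini-Hochberg over 16181 genes), and calls used the study's thresholds. The biological coefficient of variation was 6.61%. Exact two-sided permutation tests were run on CPM and on shares. Exon overlaps were computed with bedtools 2.31.1, and other steps with Python 3.11.15, numpy 2.4.6, pandas 2.3.3 and SciPy 1.17.1, with plots by matplotlib 3.10.9. The floor was 3 counts per library (0.260 to 0.343 CPM), and for a gene that no library of a line took above it, the fold is given as a bound. The gene models came from the count tables.

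On simulated counts with 200 of 16181 genes changed, edgeR called 183 of them and 4 unchanged genes, and 0 genes when none was changed, with a median error of 0.07 on the log2 scale. Alternatives were DESeq2 1.42.0 with and without shrinkage, limma-voom (limma 3.58.1), other scalings and count filters, a replicate block, other sums for the shares and leaving out each library. The subtraction of opposite-strand counts was chosen after seeing the data.

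The 10 genes and all gene lists were chosen with earlier results of these data known. The named genes are the 10, in each other list up to 5 called genes with the largest log2 fold change and a mean of at least 5 CPM in 1 line and the gene of highest level per kb, opposite-strand partners, nearest tested genes and the genes of most similar profile. CBLB, CBLC, HGF, ERBB4, PDGFRA, TYRO3, MERTK, FGFR4, FGF1, FGF2, FGF5, EGF, BTC, EFNA3, EFNA4, EFNA5, ADAM9, ADAM10, ADAM17, THY1, RGS5 and MYH11 and the markers at or near 0 were named after their values were seen. The same holds for EPHB4, EPHA1, LMTK2 and RYK. MeRIP-seq libraries were not analysed here.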

Additional observations from a re-analysis of the deposited data

How the results depend on the processing

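The fold changes of EGFR, ERBB2, ERBB3, MET, AXL, FGFR1, PDGFRB and CBL kept their direction and their side of the fold minimum under other scalings, DESeq2, limma-voom, each count filter that kept the gene and each left-out library. EPHA2 was at -0.46 without scaling, under the fold minimum, so that 6 rather than 7 of the genes were called lower there. A filter at a mean of 100 counts left ERBB3 and PDGFRB out of the fit, with 5 genes called lower, and it called 4 of the other receptors higher and 7 lower and 4991 genes in all, against 8309, because fewer genes were tested. With all opposite-strand counts taken off, ERBB2 was at 0.44, FGFR1 at -1.14 and CBL at 1.11, the opposite direction. The difference of CBL in percent of the summed receptor level was then 1.35 points, also reversed. With counts taken off only in proportion to the shared bases, ERBB2 was at 0.19, FGFR1 at -0.74 and CBL at -1.32. The FGFR3 difference ran from -0.41 to -0.17 CPM when each library was left out. The FGFR1 share changed by -0.025 points over the 9 receptors alone (exact permutation test, adjusted p = 0.563). It changed by -0.28 points without division by exon length and passed the threshold, as it did without T24 replicate 4 or T24R2 replicate 3, and ran from -0.0872 to -0.0518 points over left-out libraries. The EPHA2 share changed by -0.209 points without division by length and by 2.38 points, past the threshold, over the 9 receptors alone, and ran from 0.343 to 0.624 points over left-out libraries, passing the threshold without T24 replicate 1. Libraries of the lines with the same replicate number did not deviate together (correlations -0.015 to 0.05), most did not correlate best with their own number, and no label pairs them. A fit with the replicate number as a block gave a log2 fold change of 0.28 for EGFR and -1.40 for CBL, changed no call of the 10 genes and called 8240 genes in all. The lowest levels, those of FGFR3, PDGFRB and ERBB3 in T24R2, rest on 24 counts per library or fewer.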
